A study of Osmanthus fragrans with 6 samples.

Results

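The initial and full-bloom stages of the second flowering round are described here from 2 of the 6 petal libraries of the series. Full 2 is the full-bloom stage of round 2 and initial 2 is the initial stage of round 2. They form the only pair of these stages in which both libraries are deep. The libraries were chosen by their labels and their depth, and the level of no transcript entered the choice. Set beside them are the full, late full and abscission stages of round 1, called full 1, late full 1 and abscission 1. Initial 1, the initial stage of round 1, holds so few counts that it is given for named transcripts only. All groups are untreated petals of Osmanthus fragrans var. semperflorens, from trees in natural conditions, taken in September on dates that differed by stage. Stage and collection date therefore cannot be told apart. Each library pooled 5 replicates, so every group is 1 library, no spread between plants was measured, and no difference below has a replicate check or a p-value. The series asks how petal colour and the genes of carotenoid biosynthesis change over flowering.

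Sweet osmanthus petals open, scent the air and drop within a short flowering period. Carotenoids are plastid pigments that give many petals their yellow to orange colour, and enzymes that cleave them release scented ionones, for which osmanthus flowers are known. As petals age, plants generally take them apart in an ordered way, moving nutrients out before the organ is shed at an abscission zone. The table of counts pairs assembled transcripts with no gene names and no sequences, so none of these processes could be assigned to a transcript, the tissue label was not checked against marker genes, and 4 transcripts are named by ID only.

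Full 2 held 19240154 counts and initial 2 held 39119106, a depth 2.03 times as large in initial 2. The 3 round 1 libraries used beside them held 17826687 to 25917463 counts, and initial 1 held 107466. Levels are given in CPM, the count scaled to a library total of 1000000. In full 2 and initial 2 together, 25501 of 96596 transcripts (26.4%) had at least 50 counts, and these held 99.1% of the counts of full 2 and 99% of those of initial 2. A further 71095 transcripts had fewer counts, among them 12275 with 0 in both. A ratio is full 2 over initial 2, on the log2 scale and with a prior count of 2 that keeps ratios finite. A transcript was called higher or lower in full 2 when its ratio was at least 4-fold. The other scaling is TMM, in which edgeR sets library factors from the bulk of transcripts.

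The 4 named transcripts have the greatest gains and losses in CPM among those at least 4-fold different under both scalings. Transcript c157145_g2_i1 had 225933 counts in full 2 (11743 CPM) and 27571 in initial 2 (705 CPM). It was 16.7-fold higher in full 2 (95% exact interval 16.5 to 16.9) and 21.3-fold with TMM. Its gain of 11038 CPM was 4.11% of all gains, and it was the transcript ranked 2 by level in full 2, against rank 132 in initial 2. In round 1 it stood at 83.7 CPM in initial 1 on 9 counts, 829 CPM at full 1, 19545 at late full 1, then 28743 at abscission 1. Its full 2 level thus lay between full 1 and late full 1, while its initial 2 level lay under full 1. Of the other tested transcripts in its assembly component, a cluster of related sequences, 2 had log2 ratios of 1.91 and 3.83.

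Transcript c148011_g2_i1 had 101095 counts in full 2 (5254 CPM) and 23183 in initial 2 (593 CPM). It was 8.87-fold higher in full 2 (95% exact interval 8.74 to 8.99), or 11.3-fold with TMM. In round 1 it stood at 223 CPM in initial 1 on 24 counts, 493 CPM at full 1, 4437 at late full 1, then 26393 at abscission 1. Here full 2 lay just above late full 1 and well under abscission 1. From full 1 to late full 1 this transcript was 9.0-fold higher at the later stage (95% exact interval 8.81 to 9.19), a ratio close to that of round 2.

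For the 2 named lower transcripts the changes in CPM were smaller. By column total, 9 of the 10 greatest gains of the pair were at least 4-fold, but only 1 of the 10 greatest losses. Most of the greatest losses thus fell outside the choice of named transcripts. Transcript c160666_g2_i3 had 6778 counts in full 2 (352 CPM) and 71795 in initial 2 (1835 CPM), 5.21-fold lower in full 2 (95% exact interval 5.08 to 5.34). With TMM it was 4.08-fold lower, just past the 4-fold threshold. It stood at 1470 CPM in initial 1, 905 CPM at full 1, 371 at late full 1, then 381 at abscission 1. Full 2 lay just under both late stages of round 1, and full 1 lay between full 2 and initial 2. With TMM full 2 stood at 405 scaled CPM, beside 407 in late full 1 and 536 in abscission 1.

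Transcript c161015_g2_i3 had 904 counts in full 2 (47.0 CPM) and 38748 in initial 2 (991 CPM), 21.1-fold lower in full 2 (95% exact interval 19.7 to 22.5) and 16.5-fold with TMM. In round 1 its level was 428 CPM in initial 1 on 46 counts, with 26.1 CPM at full 1, 14.5 at late full 1, then 5.44 at abscission 1. Both initial-stage libraries were above the other 4 for this transcript, and full 1 was 16.4-fold under initial 1 (95% exact interval 11.9 to 22.2). With TMM full 1 was 11.4-fold under initial 1 (95% exact interval 8.26 to 15.5). The 2 other tested transcripts of its component had log2 ratios of -0.72 and 1.35, so members of the component differed in direction. Intervals cover counting error only and leave out the scaling.

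**Figure D1:**
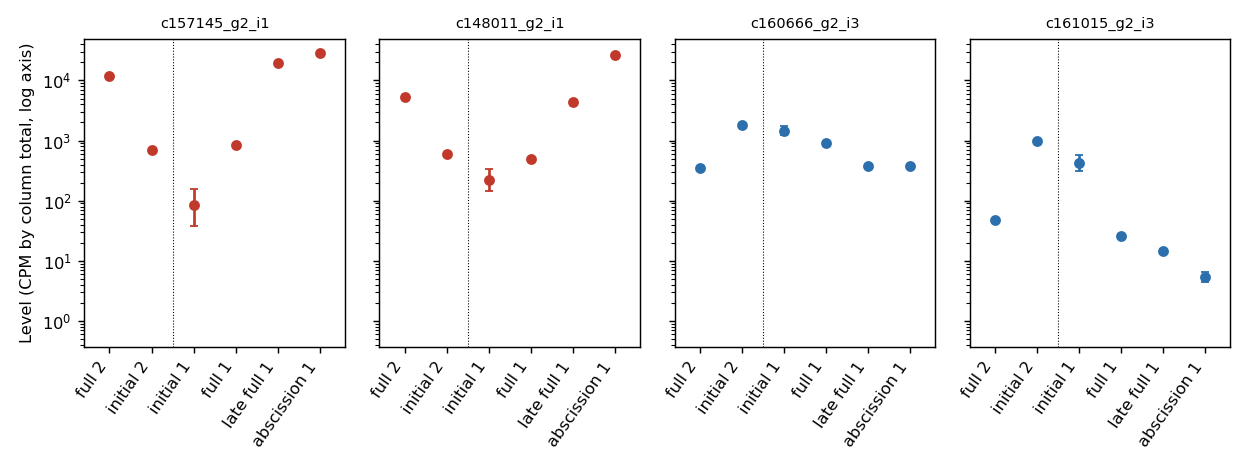
Level of the 4 named transcripts in each library, as CPM by column total on a log axis, with exact 95% counting intervals that are smaller than most points; the dotted line parts round 2 from round 1. The 2 red transcripts are higher in full 2 than in initial 2 and highest in abscission 1 (28743 and 26393 CPM), and the 2 blue ones are highest in initial 2 (1835 and 991 CPM).

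Across all tested transcripts, 1470 (5.76%) were at least 4-fold higher in full 2 and 2913 (11.4%) at least 4-fold lower. TMM scaling gave 1915 higher (7.51%) and 2089 lower (8.19%), so higher transcripts made up 33.5% of the calls by column total and 47.8% with TMM. All 1470 higher calls were also higher with TMM, and 2089 of the 2913 lower calls were also lower with TMM. The median log2 ratio was -0.41 by column total and -0.06 with TMM, and the difference between these medians is the shift that the scaling sets. Over 14531 transcripts (57.0%) full 2 and initial 2 differed by less than 2-fold. In bulk petals, fewer cells of a type and less RNA per cell cannot be told apart.

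The balance of higher and lower transcripts varied with the size of the ratio and with the scaling. By column total, 610 transcripts were at least 8-fold higher in full 2 and 1087 lower, 282 were at least 16-fold higher and 360 lower, and 104 were at least 32-fold higher and 83 lower. With TMM the counts were 803 higher and 796 lower at 8-fold, 376 and 285 at 16-fold, and 146 and 63 at 32-fold. More transcripts were thus higher than lower from 32-fold by column total, and from 8-fold, by a small margin, with TMM. Around the 4-fold threshold, 360 transcripts were 4- to 5-fold higher and 528 were 3- to 4-fold higher. On the other side, 815 were 4- to 5-fold lower and 1520 were 3- to 4-fold lower, so the count of lower transcripts depends more on where the threshold lies.

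The direction of change was tied to the level of the transcript. Among the 86 tested transcripts whose mean over the pair reached 1000 CPM, 10 were higher in full 2 and 1 was lower. From 100 to 1000 CPM, 122 of 1893 were higher (6.44%) and 30 lower (1.58%). Between 10 and 100 CPM, 461 of 9482 were higher (4.86%) and 400 lower (4.22%). Under 10 CPM the order was the other way, with 877 of 14040 higher (6.25%) and 2482 lower (17.7%).

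TMM kept the order in each of these classes. It gave 11 higher and 1 lower at 1000 CPM or more, 163 higher and 18 lower from 100 to 1000 CPM, 635 higher and 265 lower from 10 to 100 CPM, and 1106 higher and 1805 lower under 10 CPM. The lower transcripts were thus mostly transcripts of low level. Their median was 0.416 CPM in full 2 and 3.43 CPM in initial 2, whereas the higher transcripts had medians of 10.3 CPM in full 2 and 1.33 CPM in initial 2. Depth moves with this result: 50 counts are 2.60 CPM in full 2 but 1.28 CPM in initial 2, so weaker transcripts could enter through initial 2 alone. With a minimum of 5 CPM in the higher library, 1005 transcripts were higher and 1133 lower, and higher transcripts made up 47.0% of the calls.

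**Figure D2:**
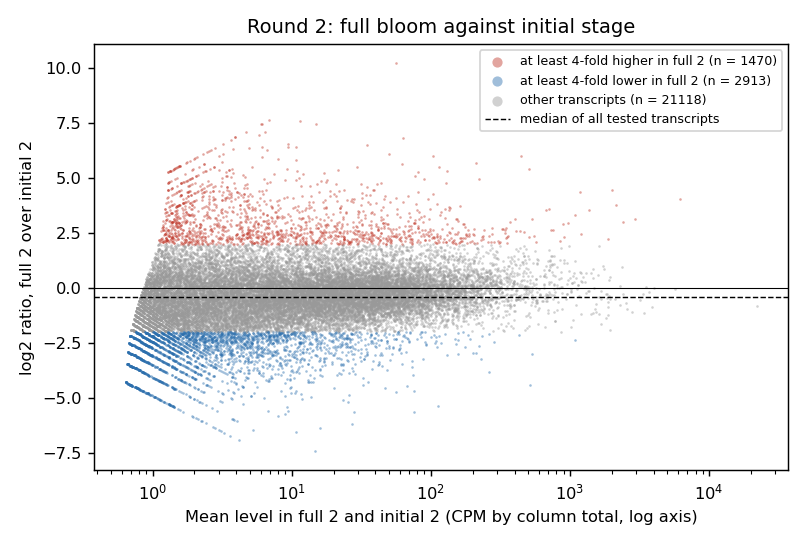
The log2 ratio of full 2 over initial 2 (vertical axis) against the mean level of the pair in CPM by column total (log axis), 1 point per tested transcript. Red points are the 1470 transcripts at least 4-fold higher, blue points the 2913 at least 4-fold lower, the dashed line is the median of -0.41, and the blue points crowd below 10 CPM.

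**Figure D3:**
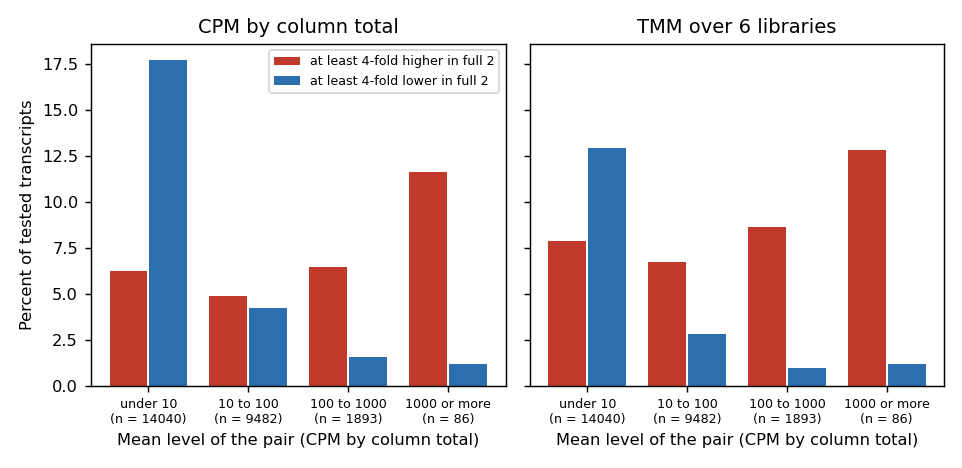
Percent of tested transcripts at least 4-fold higher (red) and lower (blue) in full 2, by mean level of the pair, with CPM by column total on the left and TMM on the right. Under 10 CPM more were lower (17.7% and 12.9%), and from 100 to 1000 CPM more were higher (6.44% and 8.61%).

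Counts that moved between transcripts were summed as CPM, which gives weight to abundant transcripts. Full 2 and initial 2 differed by 268479 CPM, which means that 26.8% of the counts, once scaled to equal totals, lay on other transcripts. Transcripts at least 4-fold higher in full 2 carried 109203 CPM, or 40.7% of the gains. Those at least 4-fold lower carried 35348 CPM, or 13.2% of the losses. The greatest gains were also larger in fold than the greatest losses: 43 of the 100 greatest gains were at least 4-fold, with a median of 3.36-fold higher, against 14 of the 100 greatest losses, with a median of 2.26-fold lower. The 10 greatest gains held 13.9% of all gains and the 10 greatest losses 10.9% of all losses. Transcripts that differed by less than 4-fold held most of the loss (85.9%) and also most of the gain (58.4%). These shares are by the classes drawn in the plot of CPM by fold class.

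With TMM, gains and losses no longer sum to the same value, and transcripts past 4-fold carried 38.2% of gains and 13.6% of losses. Under both scalings the size of the difference lay between those of the single steps in round 1. By column total, late full 1 against full 1 differed by 22.7% of the scaled counts and abscission 1 against late full 1 by 27.2%. Abscission 1 against full 1, which spans both steps, differed by 41.7%. With TMM these values were 22.7%, 34.6% and 48.5%, beside 28.4% for the round 2 pair. By column total the 10 greatest gains held 37.3% of all gains in the first of these steps and 31.7% in the second. With TMM they held 32.1% and 27.5%, beside 10.8% in round 2. A smaller part of the round 2 gains thus lay on so few transcripts. The excess of large folds among the gains was not particular to round 2. From full 1 to late full 1, 43 of the 100 greatest gains were at least 4-fold by column total, and 6 of the losses. From late full 1 to abscission 1 these counts were 42 and 14, beside 43 and 14 in round 2.

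**Figure D4:**
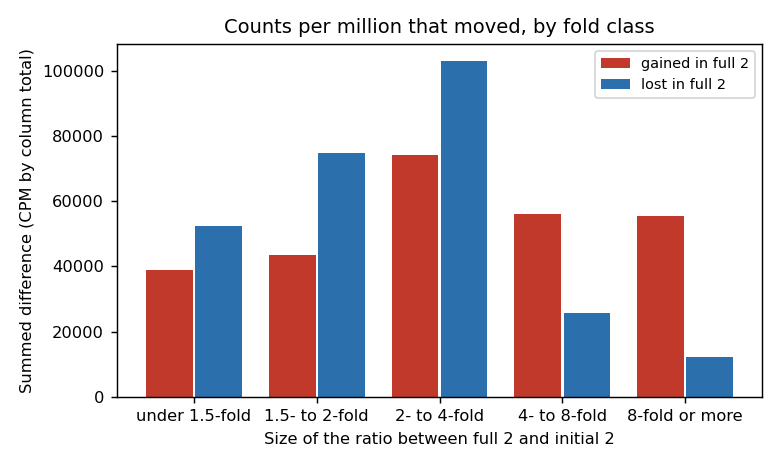
Summed differences in CPM by column total between full 2 and initial 2, over all transcripts of the table, split by the size of the ratio (gains in red, losses in blue). Transcripts that differed 2- to 4-fold held 74179 CPM of gains and 103127 of losses, and those past 8-fold held 55615 of gains and 12225 of losses.

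The 1470 higher and 2913 lower transcripts were then placed in round 1, whose 3 deep libraries took no part in choosing them. Full 2 and initial 2 are extreme for these transcripts by choice, so only the order of the round 1 libraries is of interest. The 1470 higher transcripts had median levels of 2.25 CPM at full 1, 3.97 at late full 1, then 8.58 at abscission 1. Their medians in round 2 were 10.3 CPM in full 2 and 1.33 CPM in initial 2. The 2913 lower transcripts had medians of 2.17, 1.58 and 0.617 CPM over the same 3 stages of round 1, beside 0.416 CPM in full 2 and 3.43 CPM in initial 2. All tested transcripts together had medians of 7.32, 6.10 and 5.33 CPM over those stages, a fall that TMM removes (6.94, 6.68 and 7.49 scaled CPM).

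**Figure D5:**
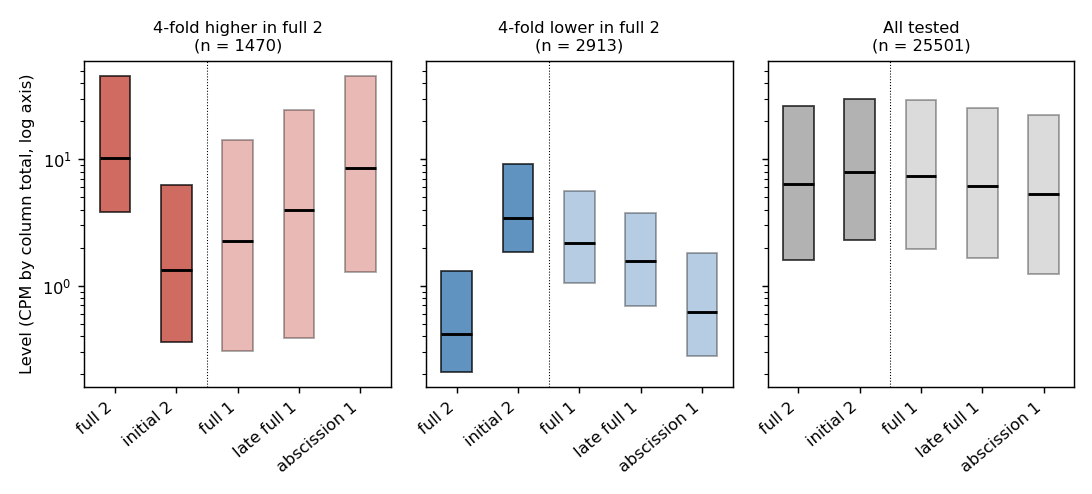
Levels of the transcripts at least 4-fold higher in full 2 (red), at least 4-fold lower (blue) and all tested (grey), as CPM by column total on a log axis; each box spans the middle 50% of transcripts with the median as a black line, and the dotted line parts round 2 from round 1. The red medians stand at 2.25, 3.97 and 8.58 CPM from full 1 to abscission 1 and the blue ones at 2.17, 1.58 and 0.617 CPM.

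Within round 1, 1092 of the 1470 higher transcripts (74.3%) were highest in abscission 1, 167 in late full 1 and 144 in full 1, and 67 had 0 counts in all 3. Over all tested transcripts 23.4% were highest in abscission 1. With TMM these shares were 77.9% of 1915 higher transcripts and 41.1% of all tested. The level increased at each step from full 1 through late full 1 to abscission 1 for 759 higher transcripts (51.6%), against 14.0% of all tested, or 57.1% against 25.8% with TMM. The share highest in abscission 1 was 74.0% for higher transcripts under 10 CPM, 74.0% from 10 to 100 CPM and 76.2% from 100 to 1000 CPM, and 9 of the 10 above that were highest there.

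Of the 2913 lower transcripts, 1907 (65.5%) were highest in full 1 within round 1, 252 in abscission 1 and 750 in late full 1. This share lies nearer to that of all tested transcripts, of which 55.4% were highest in full 1. By level, the shares of lower and of all tested transcripts were 64.2% and 51.0% under 10 CPM. They were 73.0% and 60.6% from 10 to 100 CPM, and 66.7% and 62.4% from 100 to 1000 CPM. With TMM 1121 of 2089 lower transcripts (53.7%) were highest in full 1, against 36.7% of all tested. What set the lower transcripts apart more was how few were highest in abscission 1, 8.65% against 23.4% of all tested, or 12.2% against 41.1% with TMM. A decrease at each step was seen for 49.5% of them, against 42.2% of all tested, or 37.7% against 24.3% with TMM.

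Each round 1 library was also asked whether it lay nearer, in log2 CPM, to full 2 or to initial 2. Over the 3 stages from full 1 to abscission 1, 25.6%, 40.4% and 63.4% of the higher transcripts were nearer to full 2. For the lower transcripts these shares were 25.8%, 47.5% and 87.1%. All tested transcripts gave 36.6%, 53.7% and 69.4%, so the same order of stages held with no choice of transcripts. With TMM the shares were 25.2%, 43.6% and 75.1% of higher transcripts, and 26.3%, 42.3% and 74.9% of lower ones. All tested transcripts then gave 36.7%, 50.5% and 63.9%. In abscission 1 the share of higher transcripts was thus under that of all tested by column total and over it with TMM. The levels that chose the higher and lower sets enter this measure, so their distance from all tested was not read further. Full 1, though it carries the same stage name as full 2, stood nearer to initial 2 for most transcripts of each set under both scalings.

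The steps of round 1 share no library with the round 2 pair and could be set against it as lists, although they share libraries with each other. Abscission 1 was at least 4-fold above full 1 for 1327 transcripts with 50 counts (6.26% of 21185), and below it for 2468 (11.6%). Of the higher transcripts of round 2, 408 were among the first list (27.8% of the 1470 and 30.7% of the 1327), while 57 were among the second. Of the lower transcripts, 718 were among the second list (24.6% of the 2913 and 29.1% of the 2468), while 26 were among the first. Of the 1470 higher transcripts 448 had under 50 counts in that round 1 pair, as had 1309 of the 2913 lower ones, and could not be called there. Over each whole set, with no minimum, the median log2 ratio of abscission 1 to full 1 was 1.39 for the higher, -1.64 for the lower and -0.57 for all tested transcripts. With TMM these medians were 1.75, -1.31 and -0.02. TMM lists of abscission 1 against full 1 held 1903 higher (8.98%) and 1322 lower transcripts (6.24%). Of the 1915 transcripts higher in round 2 with TMM, 608 were in the list of higher ones (31.7% of the set, 31.9% of the list), and of the 2089 lower ones, 370 were in the list of lower ones (17.7% of the set, 28.0% of the list).

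The separate steps gave the same order. Late full 1 was at least 4-fold above full 1 for 676 transcripts (2.93%) and below for 627 (2.72%). The higher transcripts of round 2 gave 216 of the first list (14.7% of the set, 32% of the list) and 22 of the second. The lower transcripts gave 53 of the first and 204 of the second (7.0% of the set, 32.5% of the list). Abscission 1 against late full 1 had 787 higher (3.62%) and 1399 lower transcripts (6.43%), of which the higher set of round 2 held 237 and 49, and the lower set 39 and 506.

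Some transcripts of the pair lay outside the range of round 1. For 271 of the 1470 higher transcripts (18.4%) full 2 was at least 4-fold above full 1, late full 1 and abscission 1 alike, which holds for 1.23% of all tested transcripts. The choice of members by a high full 2 raises this share by itself. TMM gave 239 such transcripts, against 1.07% of all tested. These 271 were mostly weak, with a median of 4.26 CPM in full 2 and 0.205 CPM in initial 2, and 37 of them reached 10 CPM in full 2. With at least 5 CPM required in the higher library, 114 such transcripts were left. In a smaller group of 72 higher transcripts (4.9%) it was initial 2 that lay at least 4-fold below all 3 round 1 libraries (0.306% of all tested). A low initial 2 was part of the choice of members, which raises this share by itself. The medians of the 72 were 18.6 CPM in full 2 and 1.19 CPM in initial 2, beside 9.09 in full 1 and 18.3 in abscission 1. With TMM there were 110 such transcripts (0.455% of all tested).

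The lower transcripts were chosen by a high initial 2 and a low full 2. This choice by itself raises both the number with initial 2 above round 1 and the number with full 2 below it. For 232 of 2913 (7.96%) initial 2 was at least 4-fold above all 3 round 1 libraries (1.26% of all tested), with medians of 0.520 CPM in full 2 and 6.07 CPM in initial 2. Of these, 90 reached 10 CPM in initial 2 and 13 reached 100 CPM. Another 101 lower transcripts (3.47%) had full 2 at least 4-fold below all 3 round 1 libraries (0.416% of all tested), with medians of 0.0520 CPM in full 2, about 1 count and under the floor of 3 counts, and 2.28 CPM in initial 2. With the minimum of 5 CPM this count was 19. TMM gave 158 transcripts with the high initial 2 (0.874% of all tested) and 127 with the low full 2 (0.537% of all tested). The difference between these counts was not tested.

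Transcripts with 0 counts on 1 side of the pair were found in each direction. In 36 higher transcripts (2.45% of the higher ones) initial 2 had 0 counts. They stood at 2.60 to 13.8 CPM in full 2, at least 45.7-fold higher at their median when 3 counts are taken as the floor of initial 2. Of these 36, 22 had 0 counts in full 1, late full 1 and abscission 1 too, and 2 reached 1 CPM in any of them. In 153 lower transcripts (5.25% of the 2913) full 2 had 0 counts, against 1.28 to 8.31 CPM in initial 2. Transcripts with a 0 passed the minimum of 50 counts through the other library alone. That minimum sets the lowest levels given here and puts every such transcript past 4-fold. Full 2 has the lower depth, so a 0 in it bounds the level less tightly. The numbers 36 and 153 cannot be compared as they stand. Of these 153, 93 reached 1 CPM in at least 1 of the 3 libraries from round 1. By stage, 71 did so at full 1, 65 at late full 1 and 2 at abscission 1. Over all 25501 tested transcripts this level was more common at each stage. It was reached by 22433 at full 1, 21614 at late full 1, then 20100 at abscission 1. For the 2913 lower transcripts the matching counts were 2246, 1879 and 1102. These larger sets were not matched to the 153 by level.

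Related transcripts of the assembly could share reads, since how reads of near-identical copies were divided is not given in the sources used here. Of the tested transcripts, 9993 fell in 4017 components with at least 2 tested members. In these, 4.54% were higher and 12% lower in full 2, against 6.55% and 11.0% of the 15508 transcripts alone in their component. In 106 components at least 2 transcripts were higher, in 193 at least 2 were lower, and in 28 of the 1283 with any call at least 1 was higher and at least 1 lower. A ratio in those 28 components can include reads of a copy that moved the other way.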

How the data were processed

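Per the labels' protocols, petal RNA came from TRIzol extraction, and poly-T beads enriched messenger RNA before Illumina library making. The submitters' processing notes name CASAVA 1.7, and the series title names de novo assembly. Which assembler, aligner and counter were used is not given in the sources used here. The authors deposited estimated counts for 96596 transcripts in 6 columns, with no scaling between libraries. The values were whole except for 36 to 855 decimals in a column, and were rounded here. Columns that matched no sample numbered 0.

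CPM used column totals. TMM factors came from edgeR 4.0.16 in R 4.3.3 over the 6 libraries or the 5 deep ones, on transcripts that reached 1 CPM in any library, and size factors from DESeq2 1.42.0. TMM factors were 0.869 for full 2 and 1.11 for initial 2. Ratios used an edgeR-type prior count of 2, at least 50 counts over the pair and a 4-fold threshold. With 1 library per group no test was made. Folds have exact 95% Clopper-Pearson intervals on the counts, and a fold against 0 uses a floor of 3 counts per library. Reads are not independent molecules, so these bounds hold counting error alone. The ratio step was tested on simulated data.

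Named transcripts are the 2 greatest gains and 2 greatest losses in CPM among those at least 4-fold different under column totals and TMM. The members, rules and classes of level were chosen with earlier results of these data known. Alternatives were other scalings, folds of 2 and 8, minimums of 10 and 200 counts or 5 CPM, a filter at 1 CPM and a prior count of 0.5. The other steps ran in Python 3.11.15 (NumPy 2.4.6, pandas 2.3.3, matplotlib 3.10.9, SciPy 1.17.1).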

Additional observations from a re-analysis of the deposited data

How the results depend on the processing

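No paired analysis was possible because each group is 1 library. Of 56 values under alternative settings, 27 stayed within 1.5 times a main count or within the main value's counting interval and 29 moved. No median changed sign. The median log2 ratio was -0.06 with TMM over 6 libraries, -0.065 over 5 deep libraries and -0.028 with DESeq2 factors, and -0.53 with at least 10 counts, -0.31 with 200 counts and -0.28 with 5 CPM in the higher library. Counts of higher and lower transcripts were 3228 and 7742 at 2-fold, 610 and 1087 at 8-fold, 3398 and 7601 with 10 counts, and 819 and 1162 with 200 counts. With 5 CPM 1133 were lower. Lower transcripts highest in full 1 numbered 1121 of 2089 with TMM over 6 libraries, beside 1907 of 2913 in the main setting. They numbered 1109 of 2095 over 5 libraries and 1059 of 2014 with DESeq2 factors. At 8-fold they were 670 of 1087, and with 5 CPM 831 of 1133. Higher transcripts highest in abscission 1 numbered 447 of 610 at 8-fold, beside 1092 of 1470 in the main setting. These sets differ in size, so a lower count is not by itself a lower share. Initial 2 lay at least 4-fold above the 3 round 1 libraries for 150 lower transcripts with DESeq2 factors, 152 at 8-fold and 125 with 5 CPM. With 5 CPM full 2 lay beyond them for 114 higher and 19 lower transcripts. The counts that moved were 28.4% of the scaled counts with TMM over 6 libraries, 26.1% over 5 and 26.2% with DESeq2 factors. Stricter minimums and folds leave fewer transcripts by construction; for the scalings the cause was not tested. Depth limits ratios under 3 counts, which are 0.156 CPM in full 2 and 0.0767 CPM in initial 2.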

Other observations

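Full 2 was not the library in which a few transcripts took most counts. Its 10 most abundant transcripts held 6.17% of its counts, against 6.64% in initial 2, and over the stages of round 1 from full 1 to abscission 1 the shares were 5.87%, 11.5% and 17.3%. Over the 1000 most abundant transcripts the share was 52.0% in full 2 and 48.1% in initial 2, beside 48.2%, 54.1% and 60.6% in round 1. The number of transcripts that together held 50% of the counts was 892 in full 2 and 1115 in initial 2, beside 1105, 777 and 461 over those stages. By this measure full 2 lay between full 1 and late full 1, and initial 2 lay beside full 1. Transcripts at 1 CPM or more numbered 22249 in full 2 and 24552 in initial 2, and 23727, 23410 and 21224 over the 3 stages of round 1.

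The placement in round 1 also varied with the size of the ratio, where a transcript with 0 counts in all 3 libraries is highest in none. Of the transcripts 4- to 8-fold higher in full 2, 75% were highest in abscission 1 within round 1, as were 78.4% of the 328 that were 8- to 16-fold higher and 67.4% of the 282 at least 16-fold higher. Of those 4- to 8-fold lower, 67.7% were highest in full 1, as were 64.8% of the 727 that were 8- to 16-fold lower and 55.3% of the 360 at least 16-fold lower. Over all tested transcripts 23.4% were highest in abscission 1 and 55.4% in full 1. By column total and over all levels, the share of the transcripts at least 16-fold lower was thus no greater than that of all tested. Most lower transcripts (2482 of 2913) were under 10 CPM, where 51.0% of all tested were highest in full 1. With TMM 36.7% of all tested were highest in full 1. The fold classes were neither matched by level nor set against the TMM share. No test of these differences was made.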
